A study of Mus musculus with 13 samples.

Results

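5-hydroxymethylcytosine (5hmC) was described here at 5 genes that write, maintain or remove DNA methylation: Dnmt1, Uhrf1, Dnmt3a, Dnmt3b and Tdg. Their gene bodies overlapped 6 of the 9097 bins of 300 kb in which the authors gave 5hmC as a percentage, and 8576 of those bins were analysed. The bins of each gene are those that its body overlaps, and the genes were chosen with earlier results of these data known. The percentages come from shallow tet-assisted bisulfite sequencing (TAB-seq), in which 5hmC is protected and other cytosines, methylated or not, are converted, so that a remaining cytosine stands for 5hmC. The samples were 13 breast tumours of FVB mice, each from 1 mouse, in which the oncogene was PyMT, the middle T antigen of polyomavirus. Tumours of 16-week-old mice were Phd2 heterozygous (Phd2+/-, n = 4), described in the labels as having restored vessels and oxygenation, or Phd2 wild type (Phd2+/+, n = 3). Tumours of 12-week-old mice came from animals injected hydrodynamically with the plasmid PRRL2-sFlk1 (n = 3), described as making tumours more hypoxic, or with the empty PRRL2 plasmid (n = 3). sFlk1 is a soluble form of a VEGF receptor, and PHD2 is an oxygen-sensing hydroxylase that marks HIF for degradation. Neither the promoter that drove the oncogene nor the cells that took up the plasmids are stated in the labels, and the models differ in age as well as in treatment. The tumours were bulk tissue, so a shift in the mix of cells and a shift of 5hmC within cells cannot be told apart, and the labelled tissue could not be checked against markers, since no transcript was measured. The table holds percentages without read counts, and depth is therefore unknown.

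DNA methylation is copied after replication by DNMT1, which UHRF1 brings to hemimethylated CpG sites. DNMT3A and DNMT3B place methyl groups on unmethylated sites. TET dioxygenases, which need oxygen, oxidise 5-methylcytosine to 5hmC and further to formylcytosine and carboxylcytosine. TDG is a glycosylase that cuts out these last forms, and base excision repair then restores an unmethylated cytosine. The values below are 5hmC on the DNA around these genes. They are not a measure of the genes' expression or of the enzymes' activity, and each belongs to every gene in its bin.

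The genes lie as follows in GRCm38, the build whose chromosome lengths the bins end at, although the submitters' processing notes name mm9. Dnmt1 (chromosome 9, 20907206 to 20959888, minus strand) lies whole in the bin from 20700001 to 21000000, of which it covers 17.6%, beside 8 other protein-coding genes such as Olfm2 and Col5a3. Uhrf1 (chromosome 17, 56303337 to 56323486) covers 6.72% of the bin from 56100001 to 56400000, which holds 14 protein-coding genes, and the histone demethylase gene Kdm4b covers 24.7% of it. Dnmt3a (chromosome 12, 3801559 to 3914443, plus strand) spans a pair of bins. The first, from 3600001 to 3900000, holds the 5′ part with 87.2% of the gene, and Dtnb covers 61.8% of that bin, against 32.8% for Dnmt3a. The second, from 3900001 to 4200000, holds the remaining 12.8% at the 3′ end, where Dnmt3a covers only 4.81% of the bin, and Efr3b and Adcy3 cover 25.5% and 22.3%. Dnmt3b (chromosome 2, 153649411 to 153687730) covers 12.8% of the bin from 153600001 to 153900000, which also holds Dnmt3b-ps1, listed as a pseudogene with the synonym Dnmt3c. Tdg (chromosome 10, 82629814 to 82650799) covers 7.0% of the bin from 82500001 to 82800000, in which Hcfc2 covers 32.3%.

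All 5 genes matched the RefSeq promoter table of GRCm38.p6, with 10 windows of 300 bases (250 before to 50 after a transcript start). The motif searched was CG, the site at which these enzymes act, which reads the same on both strands. The 3 windows below belong to the bins with the largest differences, either way, between Phd2 heterozygous and wild-type tumours, none of which passed. They show how many such sites lie at a start inside bins whose single value cannot resolve them. CG is in capitals. Dnmt3a is chr12:3806730-3807029 (plus strand, 46 CG), Dnmt3b is chr2:153649199-153649498 (plus strand, 30 CG) and Tdg is chr10:82629588-82629887 (plus strand, 26 CG).
Dnmt3a: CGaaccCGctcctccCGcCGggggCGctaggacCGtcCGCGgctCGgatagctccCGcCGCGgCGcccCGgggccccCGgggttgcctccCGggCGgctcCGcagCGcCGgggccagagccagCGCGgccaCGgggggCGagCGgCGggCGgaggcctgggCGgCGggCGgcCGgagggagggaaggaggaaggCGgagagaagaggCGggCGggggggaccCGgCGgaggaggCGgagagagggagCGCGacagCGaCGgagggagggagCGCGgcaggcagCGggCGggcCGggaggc
Dnmt3b: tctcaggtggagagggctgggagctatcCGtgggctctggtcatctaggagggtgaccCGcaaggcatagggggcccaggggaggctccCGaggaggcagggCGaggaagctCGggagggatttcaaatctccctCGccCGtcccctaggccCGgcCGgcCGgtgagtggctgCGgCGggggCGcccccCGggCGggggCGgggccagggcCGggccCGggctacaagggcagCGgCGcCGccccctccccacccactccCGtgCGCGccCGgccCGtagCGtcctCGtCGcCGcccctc
Tdg: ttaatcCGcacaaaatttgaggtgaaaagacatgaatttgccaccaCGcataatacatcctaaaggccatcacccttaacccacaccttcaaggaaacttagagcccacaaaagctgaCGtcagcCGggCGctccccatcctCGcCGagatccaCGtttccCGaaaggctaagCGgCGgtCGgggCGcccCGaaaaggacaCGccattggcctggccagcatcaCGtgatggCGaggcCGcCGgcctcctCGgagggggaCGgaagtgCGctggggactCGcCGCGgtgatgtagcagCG
As many CG as in the Dnmt3a window were found in 1.65% of the 32851 windows of the table, as many as in the Dnmt3b window in 11.7%, and as many as in the Tdg window in 16.9%. The median window held 7. Genes with several starts had unlike windows: those of Dnmt1 held 33, 12 and 2 CG, those of Uhrf1 12 and 33, and those of Dnmt3a 46, 47 and 18.

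The level of 5hmC set 1 of the bins apart. The Dnmt3a 5′ bin held 6.58% ± 1.39 (SD, n = 13 tumours), and only 136 of the 8576 bins had a higher mean. The other bins followed within a narrow range: Uhrf1 at 3.61% ± 0.783, Tdg at 3.39% ± 0.973, Dnmt1 at 3.10% ± 0.591, Dnmt3b at 2.97% ± 0.742 and the Dnmt3a 3′ bin at 2.78% ± 0.666. The median bin of the genome held 2.36%. The first of these, the Dnmt3a 5′ bin, was above the Uhrf1 bin in 12 of 13 tumours, by 2.97 percentage points with an SD of 1.71. Below it, no 2 neighbours in that order differed beyond the spread of their paired difference: Uhrf1 was above Tdg in 6 of 13 tumours, Tdg above Dnmt1 in 7, Dnmt1 above Dnmt3b in 5 and Dnmt3b above the Dnmt3a 3′ bin in 9. In the mean of every group the Dnmt3a 5′ bin ranked first. Tdg ranked second in Phd2 heterozygous tumours and last in empty vector tumours.

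**Figure D1:**
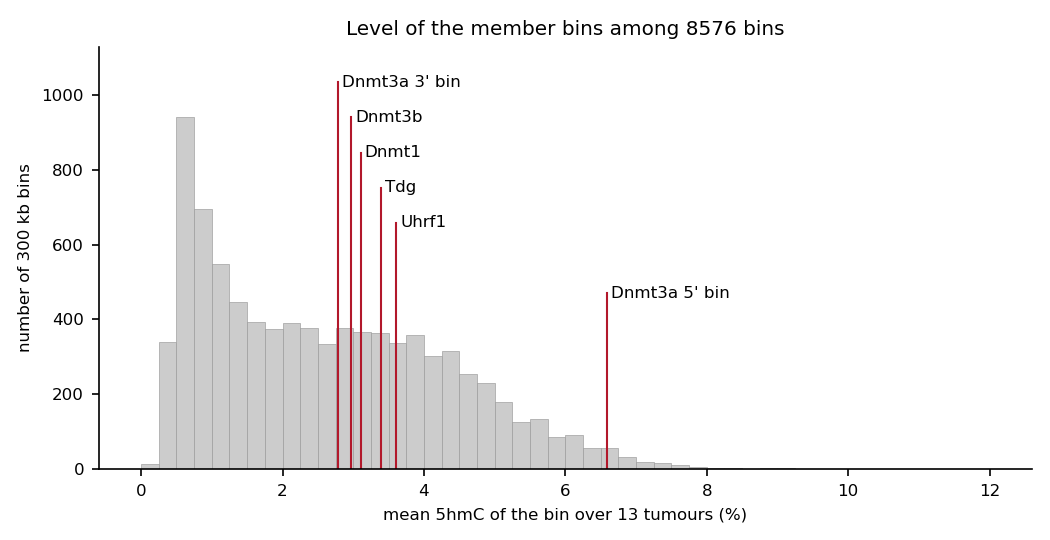
Number of 300 kb bins (vertical axis) by their mean 5hmC over 13 tumours (horizontal axis, %), with the 6 bins of the methylation genes as red lines. The Dnmt3a 5′ bin lies at 6.58% in the upper tail, and the other 5 lie between 2.78% and 3.61%.

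Set against the mean over all bins of the same tumour, the Dnmt3a 5′ bin was higher by 3.88 percentage points (SE 0.333, limma adjusted p = 1.61e-11) and above it in 13 of 13 tumours. Its share of the tumour's mean was 2.52 ± 0.428 (ratio, SD, n = 13). The Uhrf1 bin was higher by 1.03 (SE 0.237, limma adjusted p = 2.46e-04; 13 of 13 tumours), Tdg by 0.721 (SE 0.239, adjusted p = 0.00692; 12 of 13) and Dnmt1 by 0.515 (SE 0.218, adjusted p = 0.0311; 10 of 13). Dnmt3b (0.416, SE 0.222, limma adjusted p = 0.0823; 10 of 13) and the Dnmt3a 3′ bin (0.165, SE 0.207, adjusted p = 0.459; 8 of 13) did not pass on this scale. So 4 of 6 bins passed as higher and 0 as lower, where 37.4% of all bins passed as higher and 46.7% as lower. The Dnmt1 call was lost without any 1 of 4 tumours (Phd2 heterozygous 3, wild type 1, sFlk1 3 or empty vector 3), at a limma adjusted p of up to 0.104. On a log2 scale the Dnmt3b and Dnmt3a 3′ bins passed as well. The reference there was the mean of the log2 values over all bins, not the log2 of the tumour mean. Protein-coding genes covered 94.6% of the Dnmt3a 5′ bin, and among the 1105 bins whose cover was within 10 percentage points of that, the median level was 2.54%. For the other 5 bins, with 54.8% to 71.8% cover, bins of like cover had median levels of 3.49% to 3.69%, each above the bin's own level.

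Against their own surroundings, taken as up to 5 bins on each side, the bins differed in direction. At its 5′ bin Dnmt3a was higher than its neighbours by 2.50 percentage points (SE 0.318, limma adjusted p = 2.81e-06; 13 of 13 tumours). The Uhrf1 bin was higher by 1.96 (SE 0.264, limma adjusted p = 5.21e-06; 13 of 13), in a stretch whose neighbouring bins averaged 1.67%. Dnmt3b was lower by 0.903 in size (difference -0.903, SE 0.206, limma adjusted p = 9.33e-04; lower in 11 of 13 tumours). Its left neighbour with Nol4l held 4.78% ± 1.02 and its right neighbour with Bpifb4 1.93% ± 0.747. The Dnmt3a 3′ bin formed a dip (difference -1.32, SE 0.177, limma adjusted p = 4.94e-06; lower in 12 of 13) between the Dnmt3a 5′ bin and the bin of Ncoa1, which held 5.80% ± 1.45. The result depended on the span, with a difference of 0.0340 against up to 10 bins on each side (limma adjusted p = 0.875). The bins added in that wider span all lay to the right, since the chromosome start is near. The Dnmt3a 3′ bin was above its left or its right adjacent bin in 0 of 13 tumours. Dnmt1 lay beside a stretch of lower 5hmC toward the chromosome start, and passed with 0.526 (SE 0.215, limma adjusted p = 0.0381; 9 of 13), a call lost without any 1 of 8 tumours (adjusted p up to 0.107 without sFlk1 tumour 3). Tdg did not pass (0.391, SE 0.231, limma adjusted p = 0.140). Its left neighbour held 1.24% ± 0.495 and its right neighbour, with Chst11, 4.08% ± 1.13. Of all bins, 29.6% passed as higher and 41% as lower than their neighbours, so calls in either direction were common.

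**Figure D2:**
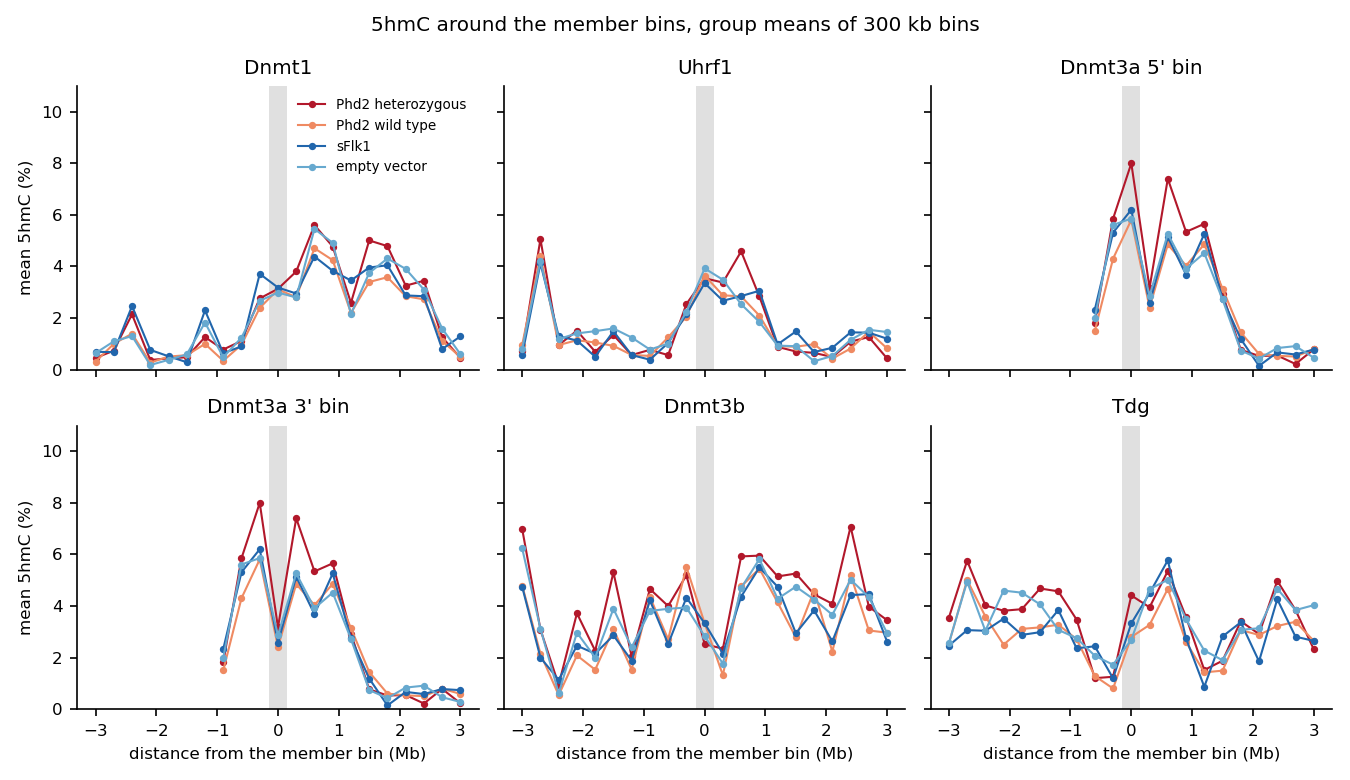
Mean 5hmC per group (vertical axis, %) in the 300 kb bins up to 3 Mb either side of each bin of a methylation gene (horizontal axis, distance in Mb; grey band, the bin itself). The Dnmt3a 5′ bin is a local peak and the Dnmt3a 3′ bin a dip between peaks; Dnmt3a lies close to the chromosome start, so fewer bins lie to its left.

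Phd2 heterozygous tumours were set against wild-type tumours to see whether 5hmC differs where oxygenation is restored. The genes did not share a direction: means were higher at Tdg and over both bins of Dnmt3a, lower at Dnmt3b and nearly equal at Dnmt1 and Uhrf1 (the direction at the Dnmt3a 3′ bin turned once its surroundings were subtracted), and 0 of the 6 bins passed (limma, adjusted over 8576 bins), as did 0% of all bins. Without adjustment 2 of 6 bins had a limma p under 0.05, both higher, against 10.4% of all bins that did so as higher, and by the exact permutation test 0 of 6, against 5.36% of all bins in either direction. The mean was higher in 4 of 6 bins, against 75.1% of all bins. With 6 bins, such counts do not set these genes apart from the genome.

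Tdg, the glycosylase gene, gave the smallest p of the 5 genes. Its bin held 4.76%, 3.35%, 4.23% and 5.31% in Phd2 heterozygous tumours 1 to 4, against 2.46%, 3.11% and 2.82% in wild-type tumours 1 to 3. All heterozygous tumours were above all wild-type tumours, as in 11% of all bins (all below in 0.933%), with heterozygous tumour 2 closest to the wild-type range. Heterozygous tumours averaged 4.41% ± 0.833 (SD, n = 4) and wild-type tumours 2.80% ± 0.328 (SD, n = 3), a difference of 1.61 percentage points (SE 0.629, limma unadjusted p = 0.0165, adjusted p = 0.373; exact two-sided permutation p = 0.0571, where 35 arrangements allow no less than 0.0286). Bins within 20% of its level, 1925 in number, had a median difference of 0.730. The Tdg difference was 0.916 in a 900 kb window and 0.937 after subtracting 10 neighbouring bins.

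Dnmt3a, a de novo methyltransferase gene, had the largest difference in percentage points. Its 5′ bin held 6.70%, 9.91%, 6.63% and 8.75% in heterozygous tumours 1 to 4, and 6.01%, 5.0% and 6.42% in wild-type tumours 1 to 3. The groups did not overlap, but heterozygous tumours 1 and 3 lay close to wild-type tumour 3. The mean of heterozygous tumours was 8.0% ± 1.61 (SD, n = 4), against a wild-type mean of 5.81% ± 0.730 (SD, n = 3), a difference of 2.19 percentage points (SE 0.942, limma unadjusted p = 0.0278, adjusted p = 0.418; exact permutation p = 0.114). Without heterozygous tumour 2 the difference was 1.55, and after subtracting its neighbouring bins it was 1.18. In the 619 bins within 20% of its level the median difference was 1.56, and 97.7% of them had a positive difference. The 3′ bin held 3.14%, 3.65%, 3.20% and 2.69% in heterozygous tumours and 2.97%, 2.0% and 2.24% in wild-type tumours, which overlap at heterozygous tumour 4 and wild-type tumour 1. Its means were 3.17% ± 0.391 and 2.40% ± 0.508 (difference 0.765, SE 0.588, limma adjusted p = 0.635). After subtracting its 8 neighbouring bins, among them the Dnmt3a 5′ bin, the difference turned to -0.214. Weighted by the bases of Dnmt3a in each, the mean of the 2 whole bins, other genes included, was 7.38% ± 1.42 in the 4 heterozygous tumours, against 5.37% ± 0.669 in the 3 wild-type tumours (SD).

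Dnmt3b, the second de novo enzyme gene, had a lower mean in heterozygous tumours. Its bin held 3.17%, 1.71%, 3.58% and 1.63% in heterozygous tumours 1 to 4, against 3.87%, 3.03% and 3.08% in wild-type tumours 1 to 3. Heterozygous tumours 2 and 4 were below every wild-type tumour, while 1 and 3 lay within their range. On average heterozygous tumours held 2.52% ± 0.996 (SD, n = 4) and wild-type tumours 3.33% ± 0.471 (SD, n = 3), a difference of -0.809 percentage points (SE 0.613, limma adjusted p = 0.632; exact permutation p = 0.314). A more negative difference was found in 0.735% of all bins, where 75.1% had a positive one. The limma unadjusted p of the Dnmt3b bin was 0.198, which ranked 2692 of 8576 from the smallest. As a share of each tumour's own mean the bin averaged 0.883 ± 0.348 and 1.42 ± 0.162, group means on either side of 1. Heterozygous tumours 1 to 4 held 1.07, 0.541, 1.27 and 0.642, so tumours 1 and 3 also lay above 1. Wild-type tumours 1 to 3 held 1.60, 1.39 and 1.28. The difference was -0.0322 in a 900 kb window, -1.83 after subtracting 10 neighbouring bins and -0.511 without heterozygous tumour 4.

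Dnmt1 and Uhrf1, the pair that copies methylation at replication, had nearly the same level in both groups. The Dnmt1 bin held 3.09%, 3.03%, 3.80% and 2.61% in heterozygous tumours 1 to 4 and 3.40%, 2.94% and 2.98% in wild-type tumours 1 to 3. The wild-type values lie within the heterozygous range, and the difference was 0.0253 percentage points (SE 0.605, limma adjusted p = 0.996). The Uhrf1 bin held 3.32%, 4.38%, 3.30% and 3.16% in heterozygous tumours and 3.28%, 4.75% and 2.91% in wild-type tumours. Here the heterozygous values lie within the wild-type range, where wild-type tumour 2 stood high (difference -0.106, SE 0.676, limma adjusted p = 0.971). The sign of either value is not settled: divided by each tumour's mean, the Dnmt1 difference was -0.606, and the Uhrf1 difference was 0.446 without wild-type tumour 2. With SEs of about 0.6, a difference of the size seen over all bins (median 0.385) was not detectable in a single bin.

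**Figure D3:**
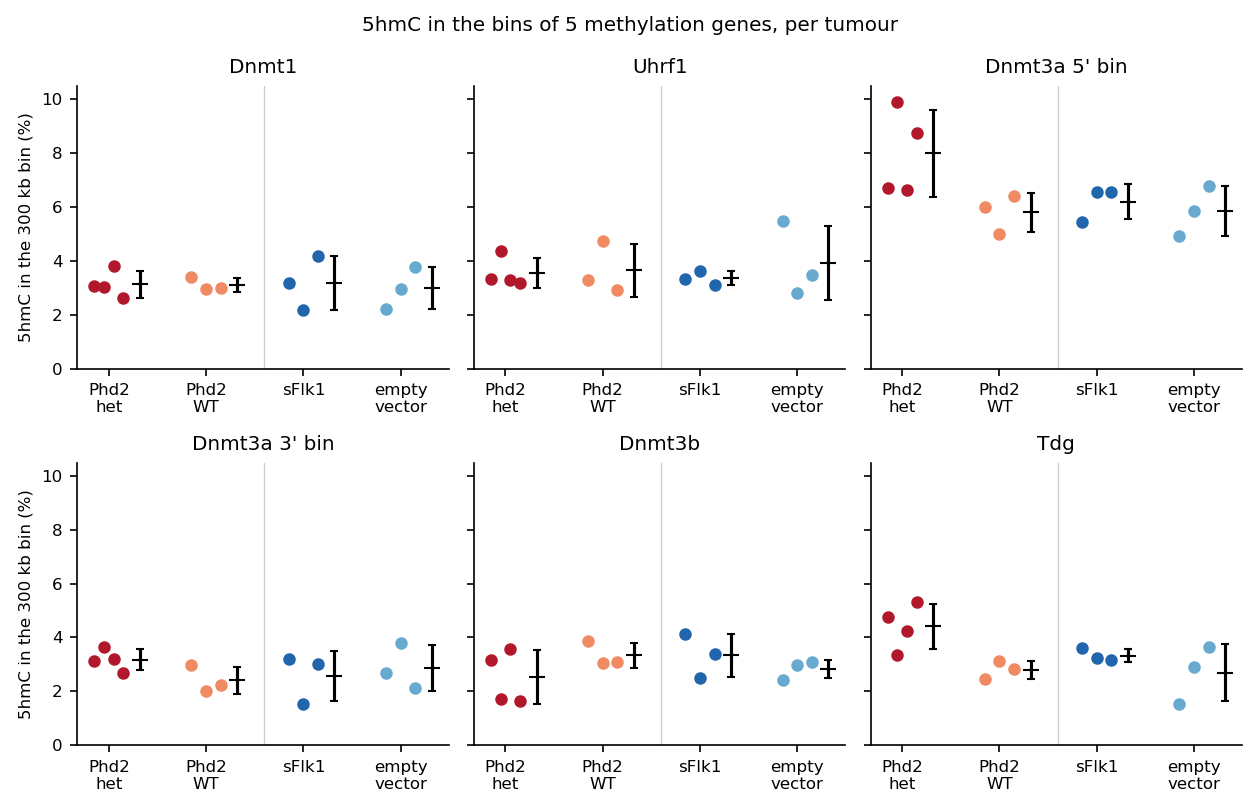
5hmC in each bin (vertical axis, %) in each tumour (points) of the 4 groups, with mean and SD beside them (black; n = 4 Phd2 heterozygous, 3 in each other group). Heterozygous tumours lie above wild-type tumours without overlap at the Dnmt3a 5′ bin and Tdg, and no bin separates sFlk1 from empty vector tumours.

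Mean 5hmC over all bins was itself higher in Phd2 heterozygous tumours, at 2.54% to 3.17%, against 2.18% to 2.42% in wild-type tumours. Dividing each tumour by its mean moved the median bin by -0.23 on the log2 scale in this comparison. On that relative scale the differences were 0.946 percentage points at Tdg (SE 0.655), 0.849 at the Dnmt3a 5′ bin (SE 0.882), 0.208 at its 3′ bin (SE 0.571), -0.606 at Dnmt1 (SE 0.595), -0.904 at Uhrf1 (SE 0.653) and -1.41 at Dnmt3b (SE 0.601). All had a limma adjusted p of 1, and 3 of 6 bins and 46.8% of all bins were higher on that scale. As shares of the tumour mean, Tdg held 1.57 ± 0.425 and 1.20 ± 0.209 (SD, n = 4 and 3), and Uhrf1 1.23 ± 0.110 and 1.58 ± 0.524.

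Tumours with the sFlk1 plasmid, described as more hypoxic, were set against those with the empty vector. No bin separated the groups: 0 of 6 passed with limma and 0 had an unadjusted p under 0.05, against 0.0117% and 7.18% of all bins in either direction. By the exact permutation test 0 of 6 had a p under 0.05, which 3 tumours against 3 cannot reach, the smallest p being 0.10. The groups overlapped in all 6 bins, while over all bins sFlk1 tumours were all higher in 3.43% and all lower in 8.24%. The mean was higher in sFlk1 tumours in 4 of the 6 bins, against 40.3% of all bins. The median difference was 0.269 percentage points in these bins and -0.146 over all bins. Mean 5hmC over all bins was itself lower in sFlk1 tumours, at 2.39% to 2.52%, against 2.57% to 2.86% in empty vector tumours. Relative to each tumour's mean, 4 of 6 bins were higher, against 51.9% of all bins. The 6 bins come from 5 genes, and these counts were not tested.

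Tdg had the largest difference of the 6 bins here. Its bin held 3.60%, 3.23% and 3.14% in sFlk1 tumours 1 to 3, against 1.54%, 2.90% and 3.65% in empty vector tumours 1 to 3. The sFlk1 tumours lay close together inside a wide empty vector range (3.33% ± 0.243 against 2.69% ± 1.07, SD, n = 3 each; difference 0.631, SE 0.673, limma adjusted p = 0.867; exact permutation p = 0.50). Without empty vector tumour 1 the difference was 0.0533, and in a 900 kb window it turned to -0.0159. At Dnmt3b the values were 4.12%, 2.50% and 3.37% in sFlk1 tumours and 2.43%, 2.98% and 3.07% in empty vector tumours. Empty vector tumour 1 was the lowest and sFlk1 tumour 1 the highest, and the groups overlapped (3.33% ± 0.807 and 2.83% ± 0.350; difference 0.501, SE 0.656, limma adjusted p = 0.895). That difference was 0.107 without sFlk1 tumour 1 and 0.913 without sFlk1 tumour 2. The Dnmt3a 5′ bin held 5.45%, 6.58% and 6.58% in sFlk1 tumours and 4.93%, 5.86% and 6.78% in empty vector tumours (6.20% ± 0.654 and 5.86% ± 0.926; difference 0.343, SE 1.01, limma adjusted p = 0.961). Its sign turned without empty vector tumour 1 (-0.120). The 3′ bin held 3.19%, 1.52% and 2.99% in sFlk1 tumours and 2.67%, 3.81% and 2.11% in empty vector tumours (difference -0.296, SE 0.629, limma adjusted p = 0.943), and its sign turned without sFlk1 tumour 2 (0.227).

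The maintenance genes differed as little. The Dnmt1 bin held 3.17%, 2.17% and 4.20% in sFlk1 tumours and 2.21%, 2.97% and 3.77% in empty vector tumours, both groups spanning a similar range (difference 0.195, SE 0.647, limma adjusted p = 0.968). The Uhrf1 bin held 3.34%, 3.61% and 3.10% in sFlk1 tumours and 5.48%, 2.82% and 3.47% in empty vector tumours. Empty vector tumour 1 was the highest of all 13 at Uhrf1 and the lowest of all 13 at Tdg and at the Dnmt3a 5′ bin. The Uhrf1 difference of -0.573 (SE 0.723, limma adjusted p = 0.889) was 0.207 without it.

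Both comparisons were also joined, as the better oxygenated arms (Phd2 heterozygous and empty vector) against the less oxygenated arms (Phd2 wild type and sFlk1), averaged over the models. Here 0 of 6 bins passed with limma, against 0.0117% of all bins, and 0 had an unadjusted p under 0.05 with limma or by exact permutation, against 13% and 12.1% of all bins. The mean was higher in the better oxygenated arms in 4 of 6 bins, against 72.3% of all bins, and relative to the tumour mean in 3 of 6, where Uhrf1 turned to -0.340 and the values at the Dnmt3a 5′ bin and Tdg were 0.0162 and 0.0408. The differences ran from 0.924 percentage points at the Dnmt3a 5′ bin (SE 0.689, limma adjusted p = 0.579) through 0.531 at its 3′ bin (SE 0.431), 0.490 at Tdg (SE 0.461), 0.234 at Uhrf1 (SE 0.495) and -0.0848 at Dnmt1 (SE 0.443) to -0.655 at Dnmt3b (SE 0.449, limma adjusted p = 0.541; exact permutation p = 0.127 over 700 arrangements within models). Dnmt3b had a lower mean in the better oxygenated arm of both models. In 0.933% of all bins the joint difference was more negative, where 72.3% had a positive one. The limma unadjusted p of the Dnmt3b bin was 0.156, which ranked 2476 of 8576 from the smallest. Tdg had a higher mean in Phd2 heterozygous than wild-type tumours and in sFlk1 than empty vector tumours, although oxygenation was described in opposite ways. So did the Dnmt3a 5′ bin (2.19 and 0.343 percentage points) and, by little, Dnmt1 (0.0253 and 0.195). The share of all bins that did so was not counted. The test of whether the oxygenation effect differed between the models gave 2.24 percentage points at Tdg (SE 0.921, limma unadjusted p = 0.0219, adjusted p = 0.927). The estimate was larger at the Dnmt3a 5′ bin, at 2.53 (SE 1.38, limma unadjusted p = 0.0772, adjusted p = 0.927). In that test 1 of 6 bins had an unadjusted p under 0.05, against 3.94% of all bins that did so in the same direction, and 0 passed after adjustment, against 0.0117% of all bins.

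**Figure D4:**
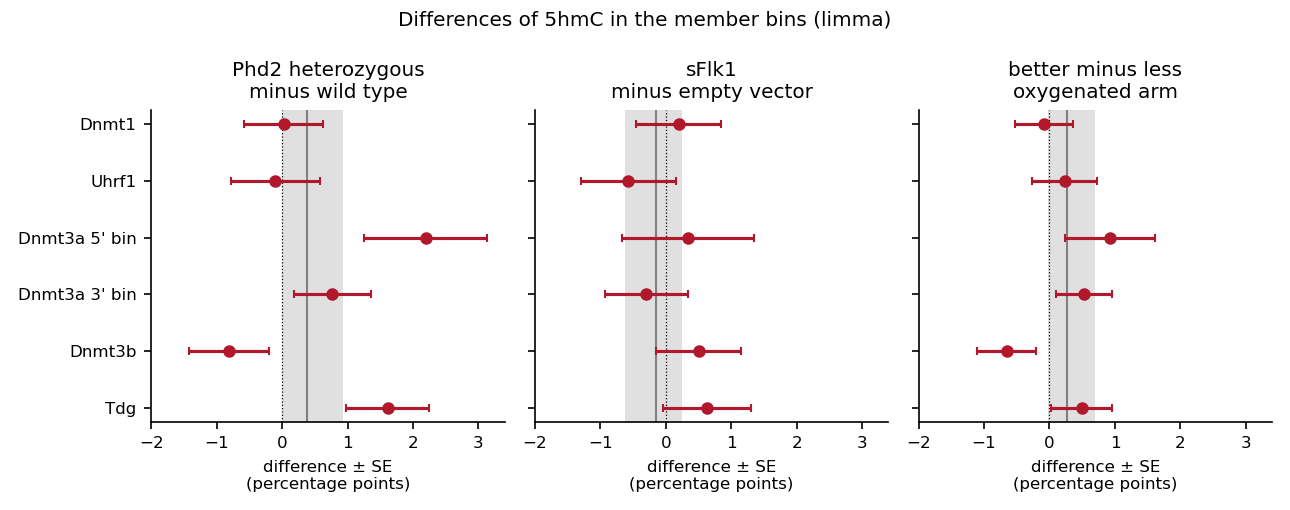
Differences of 5hmC with limma's SE (horizontal axis, percentage points) in the 6 bins for the 3 comparisons; the grey band spans the middle 50% of all 8576 bins and the grey line is their median. The Dnmt3a 5′ bin and Tdg lie to the right of the band and Dnmt3b and, closer to it, Uhrf1 to its left for Phd2 heterozygous minus wild type.

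Bins of 51 other genes of cytosine modification, in 5 lists, were read beside them, each gene by the bin holding most of its body. In Phd2 heterozygous against wild-type tumours 0 of 51 passed with limma (lowest adjusted p = 0.324), 8 had an unadjusted limma p under 0.05, all higher (10.4% of all bins did so), and 3 had an exact permutation p under 0.05 (5.36% of all bins). Means were higher for 44 and lower for 7, but relative to each tumour's mean for 27 and 24, where 75.1% and 46.8% of all bins were higher on these scales. The list of methylation partners had 10 of 12 higher on either scale, with a median difference of 1.12 percentage points, against 0.385 over all bins. That median is not set against bins of the list's own level, and bins within 20% of the Uhrf1 level had a median of 0.806. The list held Dnmt3l, a cofactor of the DNMT3 enzymes, at 4.70% ± 0.913 and 3.01% ± 1.09 (SD, n = 4 and 3), Uhrf2, a relative of Uhrf1, at 4.09% ± 0.605 and 2.94% ± 0.426, and Usp7, a deubiquitinase that binds DNMT1 and UHRF1, at 5.04% ± 0.724 and 4.02% ± 0.547. Oxidation and metabolite genes were higher for 10 of 10 (median 0.948), or 5 of 10 relative to the tumour mean, with 4.41% ± 1.18 and 2.94% ± 0.303 at Tet1, 4.84% ± 1.11 and 4.52% ± 0.398 at Tet2, and 6.0% ± 0.912 and 3.51% ± 0.509 at Tet3. Methyl donor genes were higher for 9 of 10 (median 1.10) and methyl-CpG readers for 6 of 7 (median 0.430), or 6 of 10 and 2 of 7 relative to the tumour mean, with Mbd2 at 4.25% ± 0.841 and 2.72% ± 1.09.

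The base excision repair list holds other glycosylase genes as well as genes of later steps. In heterozygous tumours 9 of 12 were higher (median 0.444 percentage points), near the share and median of all bins. Relative to the tumour mean 4 of 12 were higher. Mbd4, a glycosylase gene for mismatches at CpG, held 4.42% ± 1.05 and 4.37% ± 1.31 (SD, n = 4 and 3), and Smug1, a uracil glycosylase gene, 1.29% ± 0.395 and 1.60% ± 0.263. Apex1, the gene of the endonuclease that follows TDG, held 3.08% ± 0.507 and 2.42% ± 0.124. In sFlk1 against empty vector tumours 0 of 51 passed with limma (lowest adjusted p = 0.582) and 2 had an unadjusted limma p under 0.05, both lower, where 7.18% of all bins had one in either direction. Exact permutation gave 0 of 51, as this design must. Means were lower for 36 and higher for 15 of the 51, but relative to the tumour mean lower for 23 and higher for 28, where 59.5% and 47.9% of all bins were lower on these scales. Base excision repair genes were lower for 10 of 12 there (median -0.50), or 9 of 12 relative to the tumour mean, with 3.28% ± 0.317 and 3.82% ± 0.936 (SD, n = 3 each) at Mbd4 and 0.732% ± 0.0915 and 0.995% ± 0.170 at Smug1, while Apex1 held 2.99% ± 0.867 and 2.91% ± 0.722. At Smug1 all sFlk1 tumours were below all empty vector tumours, as in 8.24% of all bins. Its exact permutation p was therefore 0.10, the smallest this design allows, and its limma adjusted p was 0.904. Zbtb24, Fh1, Xrcc1 and Amd1 of the lists had the same exact permutation p. The other lists were lower for 8 of 12 (methylation partners), 5 of 10 (oxidation), 5 of 7 (readers) and 8 of 10 (methyl donor), and relative to the tumour mean for 4, 1, 2 and 7.

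**Figure D5:**
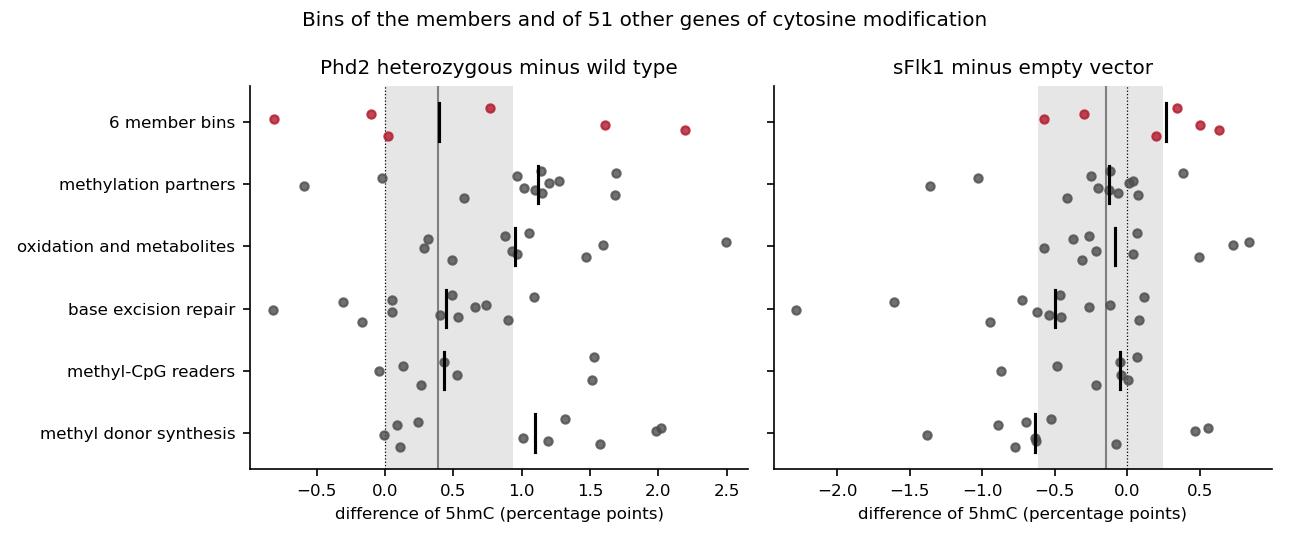
Differences of 5hmC (horizontal axis, percentage points) in the 6 bins of the methylation genes (red) and in the bins of 51 other genes (grey), 1 point per bin or gene, with the median of each row (black bar), the middle 50% of all bins (grey band) and their median (grey line). For Phd2 heterozygous minus wild type the 6 red points spread from -0.809 to 2.19.

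Bins whose values followed these most closely over the 13 tumours were sought on other chromosomes among bins with a protein-coding gene, as a description with no test. For the Dnmt3a 5′ bin they were those of Pkn2 (Pearson r = 0.919) and Lhfp (r = 0.916), both on chromosome 3. For Tdg they were those of Dnah1 (r = 0.854) and Naa11 (r = 0.804). For Uhrf1 they were those of Col23a1 (r = 0.905) and Zfhx3 (r = 0.898). At Dnmt1 (highest r = 0.799, Ptprt) and Dnmt3b (highest r = 0.756, Dmd) none of the 6270 and 6119 bins compared reached an r of 0.8. For the Dnmt3a 5′ bin 48 of 6334 did, and for its 3′ bin 15 (highest r = 0.914, Nwd2). The contrast depended on the measure. Spearman's rank correlation was 0.841 for Dnmt3b with Dmd, but 0.687 and 0.692 for Uhrf1 with Col23a1 and Zfhx3. For Dnmt1 it was 0.648 with Ptprt and 0.880 with Sult2a5, the second bin by r. All points come from the same 13 tumours, whose mean over all bins ran from 2.18% to 3.17%. Each r given is 1 of the 2 highest among all bins compared.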

How the data were processed

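TAB-seq 5hmC was analysed in 13 PyMT tumours. The authors deposited 1 table with the percent of 5hmC per 300 kb bin and tumour. The submitters' processing notes name Bismark 0.13.1 and mm9, with no role given, while the last bin of chromosome 1 ends at its GRCm38 length, 195471971. The sources used here do not say how calls were pooled in a bin, nor name coverage minimums or conversion controls. If bins were cut from mm9 alignments, positions could be shifted, which was not tested.

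Of 9097 bins, 307 on chromosome Y or the mitochondrial genome and 214 at 0 in all tumours were left out. Percentages were fitted for 8576 bins with limma 3.58.1 in R 4.3.3 (4 group means, trended prior), with Benjamini-Hochberg adjustment over all bins and a threshold of 0.05, after the script was tested on simulated data. Exact permutation tests over tumours were two-sided, within models for the joint contrast. Levels were fitted after subtracting the tumour mean or the mean of up to 5 bins on each side. Tumours are separate mice per the labels. Genes were placed by RefSeq coordinates, and each of the 51 other genes by the bin holding most of its body. Named were the 5 genes, 10 genes of the lists, and the 2 most correlated bins on other chromosomes. The genes and lists were chosen with earlier results of these data known. Alternatives were a log2 scale (offset 0.5), an arcsine scale, scaling to the tumour mean, sample weights, wider windows, other bin filters, a replicate block and leaving out each tumour. Depth per tumour is unknown, so no counting error is given.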

Additional observations from a re-analysis of the deposited data

Results flagged for a closer look

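A tumour far from the others of its group was sought in 16 bins, in the Phd2 heterozygous tumours only. The other groups, of 3 tumours each, were too small for the rule and were not tested. In 2 of the 16 bins a tumour stood apart, where chance flags about 1 in 20 groups. In the Uhrf1 bin, Phd2 heterozygous tumour 2 held 4.38%, above the other 3 heterozygous tumours (3.16% to 3.32%), with a gap of 0.868 of the group's range. In the bin of Tet3, 1 of the 4 Phd2 heterozygous tumours held 7.36%, with a gap of 0.848 of the range. The causes were not tested.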

How the results depend on the processing

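No bin passed in any comparison between groups under any alternative, and 0 of the 51 other genes did where they were counted again. Directions turned in these cases. Scaled to the tumour mean, Dnmt1 was -0.606 (Phd2) and Uhrf1 -0.340 (joint contrast). With sample weights, Uhrf1 was 0.00725 (Phd2) and Dnmt1 -0.0317 (sFlk1) and 0.0742 (joint). In 900 kb windows, Uhrf1 was 0.292 (Phd2), and the Dnmt3a 5′ bin -0.0837 and Tdg -0.0159 (sFlk1). After subtracting neighbouring bins (10 for Dnmt1, 8 for the Dnmt3a 3′ bin), Dnmt1 was -0.531 and the Dnmt3a 3′ bin -0.214 (Phd2). Against up to 10 bins on each side, where the added bins all lay to the right, the Dnmt3a 3′ bin was 0.0340 above its surroundings. On the log2 scale, the Dnmt3a 3′ bin (0.34) and Dnmt3b (0.45) passed against the tumour's mean of log2 values, which is another reference than the log2 of its mean. With a replicate block, Uhrf1 was 0.0201 (Phd2) and Dnmt1 0.00185 (joint). Same-numbered tumours did not deviate together from their group means (r of -0.0934 to -0.00429 in the Phd2 and -0.0526 to -0.0421 in the sFlk1 model). These values cannot settle whether the numbers pair tumours, since deviations sum to 0 within each small group.

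Leaving out 1 tumour gave, for Phd2, -0.197 to 0.199 at Dnmt1 and -0.475 to 0.446 at Uhrf1. For sFlk1 it gave -0.314 to 0.698 at Dnmt1, -0.120 to 0.806 and -0.673 to 0.227 at the Dnmt3a 5′ and 3′ bins, -1.13 to 0.207 at Uhrf1 and, without a change of sign, 0.107 to 0.913 at Dnmt3b. For the joint contrast it gave -0.337 to 0.170 at Dnmt1 and -0.156 to 0.511 at Uhrf1. Against the tumour mean, Dnmt1 ran from 0.394 to 0.643 and Dnmt3b from 0.308 to 0.522, and Dnmt1 against its neighbours from 0.391 to 0.642. The limma adjusted p of Dnmt3b against the tumour mean ran from 0.0358, without Phd2 heterozygous tumour 2, to 0.211. So Dnmt3b passed there without that tumour, though not with all 13. Using only the tumours of a contrast adds nothing to the joint contrast, which uses all 13. Depth limits all values to an unknown degree, since no counts are given. The causes of these changes were not tested.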
